A study of Mus musculus with 454 samples.

Results

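The cells described here are a small group of vagal sensory neurons of the mouse that carry transcripts of Tgm2, Pdk4, Rgma, Wdr72 and Igf1. They were chosen in a droplet library of the whole nodose ganglion: each of its 1108 barcodes was scored by the mean of log2(CPM + 1) over those 5 genes, where CPM is a gene's unique molecular identifiers (UMIs) per 1000000 UMIs of the barcode, and the 100 barcodes with the highest score were taken as members. They were set against the 966 other barcodes with Snap25, the neuronal vesicle fusion gene, at 500 CPM or more. All 100 members passed that neuronal level too. The score used measured values, so the levels of the 5 genes describe the choice and test nothing.

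All cells came from the nodose ganglion of wild-type C57BL/6 mice and were freed with papain, collagenase and dispase before their messenger RNA was sequenced. One library was made with 10x Genomics reagents from mice aged 6 weeks. The other samples of the 454 are single cells picked from mice aged 8 to 12 weeks and sequenced by Smart-seq2, of which 99.1% are used here. The deposited read table gives each picked cell a mouse and a target code (GastG, GastP, IntP, IntM, IntD, IntL, Port or na), which the sources used here do not expand. Gast and Int below stand for all codes that begin so. No treatment or allele separates the groups.

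Vagal sensory neurons have their cell bodies in the nodose and jugular ganglia and carry signals from the gut, heart and airways to the brainstem. They fall into many types that differ in the receptors, channels and peptides they express. Transcripts of heavy neurofilaments and of fast sodium and potassium channels mark thicker, myelinated fibres in sensory ganglia, while Trpv1, Scn10a and peptides mark many thin ones.

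There was 1 droplet library, so cells are not replicates, no test was made between groups of its barcodes, and the exact 95% intervals of ratios and shares cover counting error only. Members held 14095 UMIs at the lowest, 43710 at the median and 66981 at the highest, and the other neurons had a median of 59397. The score ran from 2.65 to 6.99 in members, with a median of 5.31. Among the other neurons the highest score was 2.61, and 733 of the 966 had no UMI of any of the 5 genes. Just inside the threshold lay barcodes at 2.85, 2.67 and 2.65, and just outside lay barcodes at 2.61, 2.59 and 2.58. Each of these 6 carried only 2 of the 5 genes, so the group has no gap at its lower edge. All 5 genes were found in 38 members, 4 in 34, 3 in 22 and 2 in 6.

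**Figure D1:**
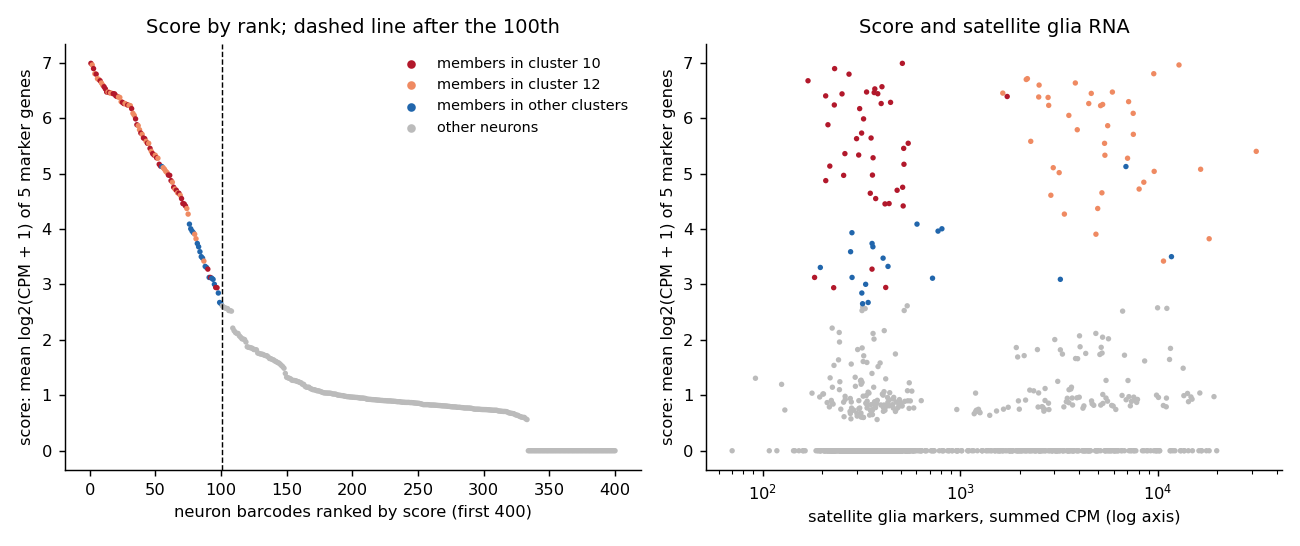
Left, the score (mean log2(CPM + 1) of 5 genes) of the 400 highest neuron barcodes by rank, with a dashed line after the 100th. Right, the score against the summed CPM of 8 satellite glia markers (log axis) for all neurons; each point is a barcode, and the members of cluster 12 lie to the right of those of cluster 10 at like scores.

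The markers were unevenly shared among members. Igf1, which encodes insulin-like growth factor 1, had a UMI in 98 members, with a median of 197.1 CPM and a highest value of 485.3. Tgm2, the calcium-dependent enzyme that cross-links proteins, had one in 94 members (median 99.4 CPM, highest 354.3). Rgma, a membrane-anchored ligand of neogenin, was found in 80 members at a median of 44.3 CPM. Wdr72, a WD-repeat protein known from enamel formation, was found in 75 at a median of 29.4 CPM. Pdk4, the kinase that shuts down the pyruvate dehydrogenase complex, was the least widely detected, in 57 members, at a median of 22.7 and a highest value of 316.8 CPM. For each of the 5 genes the lowest member was at 0, so no single one of them was found in every member.

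Over summed UMIs, Tgm2 stood at 111.7 CPM in members against 1.45 in the other neurons, Igf1 at 193.8 against 3.28, Pdk4 at 52.8 against 0.477, Rgma at 46.5 against 1.34 and Wdr72 at 38.6 against 0.700. In mm10 with GENCODE M21, the Tgm2 gene spans chr2:158116402-158146436 on the minus strand and Pdk4 spans chr6:5483351-5496309 on the minus strand. Igf1 spans chr10:87858265-87937042, Rgma chr7:73375509-73419899 and Wdr72 chr9:74110356-74283308, all on the plus strand. UMIs were counted per gene, so exons and UTRs are not resolved. With every barcode thinned to 10000 UMIs, Rgma had a UMI in 38% of members (28.5 to 48.3), in 1.55% of other neurons and in 23.8% of 21 satellite glia barcodes, whose median depth was 14919 UMIs. Pdk4 had one in 33% of members, 0.725% of other neurons and 9.52% of those glia. Tgm2, Wdr72 and Igf1 had none in those 21 thinned barcodes, which allows a share of up to 14.3%. Satellite glia here are barcodes under 500 CPM of Snap25 with at least 20000 CPM of their markers, a level set after the values were seen.

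Markers of the placode-derived nodose class were present. The ATP-gated channel P2rx2 had a UMI in 97 members and in 97.7% of other neurons. Prdm12, which marks the neural crest-derived jugular class, had a UMI in 2 members and in 4.55% of other neurons. These shares alone do not set the members apart from other neurons. P2rx2 stood at 327.8 CPM in members and 283.5 in other neurons. Of the 6 nodose markers Phox2a was 3.89 times higher, the cannabinoid receptor Cnr1 was lower (ratio 0.321), and 2 were 4-fold or more lower, the serotonin receptor subunits Htr3a (68.4 against 572.2 CPM) and Htr3b (2.79 against 85.7). Of 6 jugular markers tested 2 were 4-fold or more lower, Prdm12 and Gfra3, while Prrxl1 was 2.61 and Tac1 1.34 times higher. For Prrxl1, 3 members held 48.6% of the UMIs. In the members of clusters 10 and 12, described below, Prrxl1 stood at 5.87 and 9.28 CPM, against 6.60 in other neurons. Tac1 stood at 39.5 and 45.2 CPM in them, against 62.4 in other neurons. The jugular list summed to 218.9 CPM in members and 219.2 in other neurons, with a median log2 ratio of -0.14. Macrophage and immune markers summed to 1.40 CPM in members and 1.57 in other neurons, and red cell markers to 1.86 and 4.45. Schwann cell markers summed to 233.6 and 338.4, endothelial markers to 48.4 and 105.6, mural and fibroblast markers to 7.21 and 9.16, and sympathetic markers to 105.2 and 77.3 CPM.

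When neurons were clustered with the 5 genes left out, 22 clusters formed and 81 members fell in a pair of them. Cluster 10 held 42 members among its 43 cells, and cluster 12 held 39 among its 40. The remaining 19 members lay in clusters 18 (7), 15 (6), 8 (2), 11 (2), 6 (1) and 17 (1). At the coarser resolution of 0.5, 88 members shared 1 cluster. The clustering drew on the same barcodes as the score and is no separate test.

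Clusters 10 and 12 carried the marker genes alike and differed in satellite glia transcripts. Tgm2 stood at 124.4 CPM in cluster 10 and 124.3 in cluster 12, and Lypd1 at 3334.0 and 3347.6. The glial lipid carrier Apoe stood at 225.5 and 4058.6 CPM, and the fatty acid binding protein Fabp7 at 24 and 938.6. Members of cluster 10 had between 169.9 and 1729.2 CPM of the 8 glia markers together, and members of cluster 12 between 1642.9 and 31464.9. Of 7889 genes with 50 UMIs in both clusters together, 79 were 4-fold or more higher in cluster 12, led by Igfbp4, Kcnj10 and Prss35, and 1, Nell2, was 4-fold or more lower. Over all members the glia markers summed to 2718.4 CPM against 1471.8 in other neurons, with 7 of the 8 between 1.53 and 2.32 times the level of other neurons and Glul at 1.05. More than 2000 CPM of them were found in 41 members and in 24.2% of other neurons. Without those barcodes 1.53% of genes were 4-fold or more higher in members and 3.08% lower, beside the 1.47% and 2.76% given below for all members.

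The 19 members in other clusters had lower scores and carried fewer of the other genes. Their scores ran from 2.65 to 5.13, with a median of 3.47, against medians of 5.59 in cluster 10 and 5.79 in cluster 12. Grm5, the metabotropic glutamate receptor 5, had a UMI in 61 of the 81 members of clusters 10 and 12 and in 0 of these 19, which allows a share of up to 15.8%. Lypd1 had a median of 428.8 CPM in them, against 3489.3 in the members of cluster 10. Their Nrp2, a semaphorin receptor, had a median of 19.9 CPM against 744.4. Of the 15 genes that lead the group outside the gene lists, a member of cluster 10 held a UMI of 13 at the median, a member of cluster 12 of 12, and a member elsewhere of 7. The other neurons held 3 at the median and 10 at the highest.

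**Figure D2:**
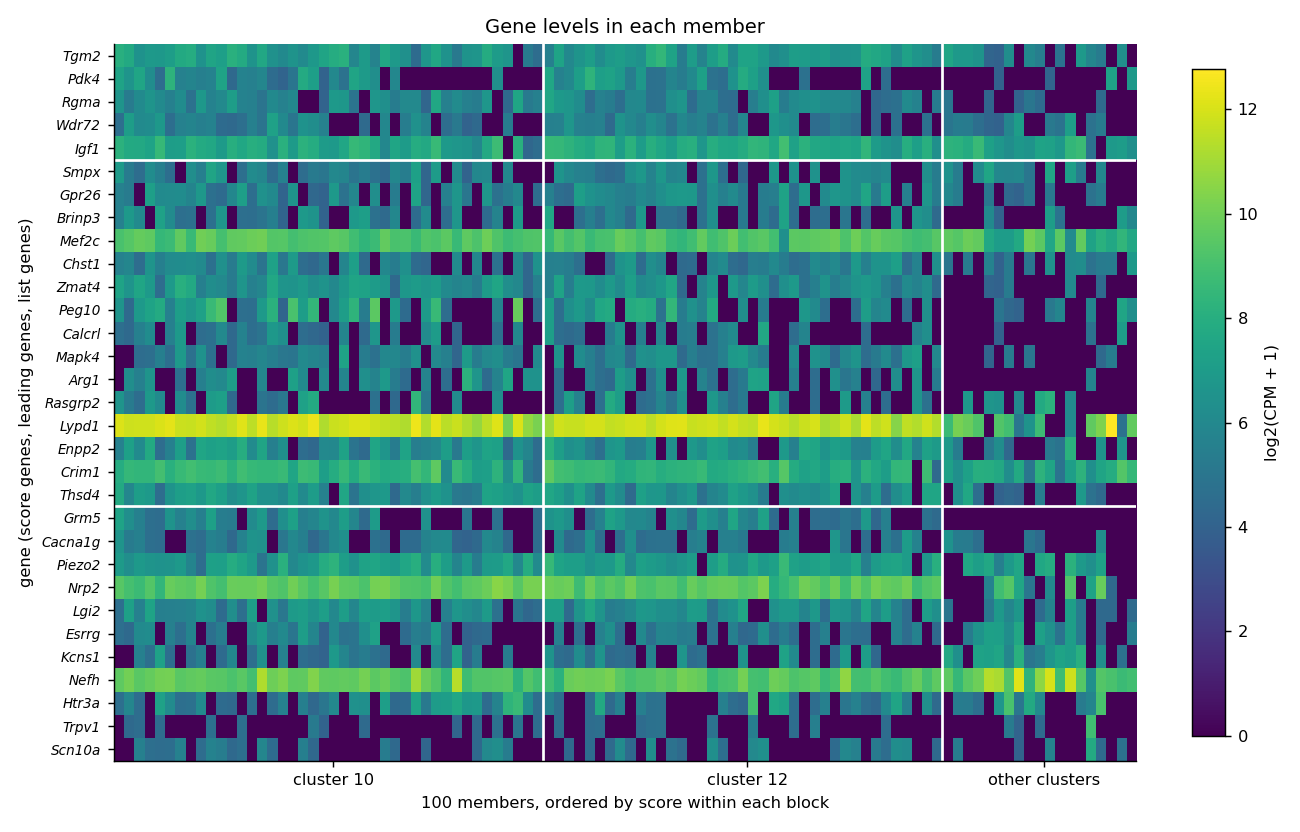
Level of each gene (rows, log2(CPM + 1) by colour) in each of the 100 members (columns), in blocks for cluster 10, cluster 12 and other clusters, ordered by score within a block. White horizontal lines part the 5 score genes, the 15 leading genes and other list genes; Grm5 is dark in the whole right block, and Pdk4 is dark in many columns of each block.

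Of 11158 genes with at least 200 UMIs, score genes included, 1.47% were 4-fold or more higher in members than in other neurons and 2.76% were 4-fold or more lower. These shares go by the ratio alone, and since the members were picked in the same barcodes nothing is read from them. The median log2 ratio of all tested genes was 0.16. The leading genes held a few abundant transcripts found in almost every member and many sparse ones.

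Lypd1, a membrane-anchored protein that binds nicotinic receptors, was the most abundant of the leading genes. It was found in 96 members, with a median of 3287.5 and a highest value of 6996.1 CPM, and stood at 2906.1 CPM over all members, 12.2 times (11.9 to 12.5) the level of other neurons. In the other neurons 64% had a UMI of it and 25 cells exceeded the median member. Barcodes of at most 100 UMIs, which hold free RNA, carried it at 9.15% of the members' level. Cluster 11, with 2 members, had 3590.7 CPM, so Lypd1 was high in neurons beyond this group. Mef2c, a transcription factor of muscle and neurons, was found in all 100 members, from 70.9 to 1110.2 CPM with a median of 630.3. It stood at 599.3 against 32.7 CPM (ratio 18.3, 17.3 to 19.4). Crim1, a transmembrane protein that binds bone morphogenetic proteins, was found in 99 members at a median of 289.7 CPM and stood 10.9 times higher (10.1 to 11.8).

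The sparse leading genes had higher ratios and lower levels. Smpx, a small protein of striated muscle and hair cells, had the highest, 33.5 (26 to 43.5), at 47.5 against 1.42 CPM, and was found in 73 members. The orphan receptor Gpr26 followed at 20.9 (16.8 to 26), then Brinp3 at 18.4, the keratan sulfate sulfotransferase Chst1 at 17.9 and the zinc finger gene Zmat4 at 17.8. Peg10, an imprinted gene derived from a retrotransposon, was 15 times higher and uneven, from 0 to 886.3 CPM. Calcrl, the receptor core for CGRP and adrenomedullin, was 14.8 times higher but had a UMI in only 49 members, and cluster 17 exceeded it (64.9 CPM against 29.2 in cluster 10). Mapk4, an atypical MAP kinase, was 13.9 times higher, as was Arg1, the arginase of the urea cycle, found in 52 members. Rasgrp2 (13.5), the lysophosphatidic acid enzyme Enpp2 (11.8) and Thsd4 complete the list. Of the 20 genes named so far from the score and the leading list, each kept a ratio above 4 under every alternative tried, the lowest being 7.57 for Thsd4. These genes made the score or were ranked by ratio in the same barcodes, which the alternatives reuse, so this is no separate test.

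**Figure D3:**
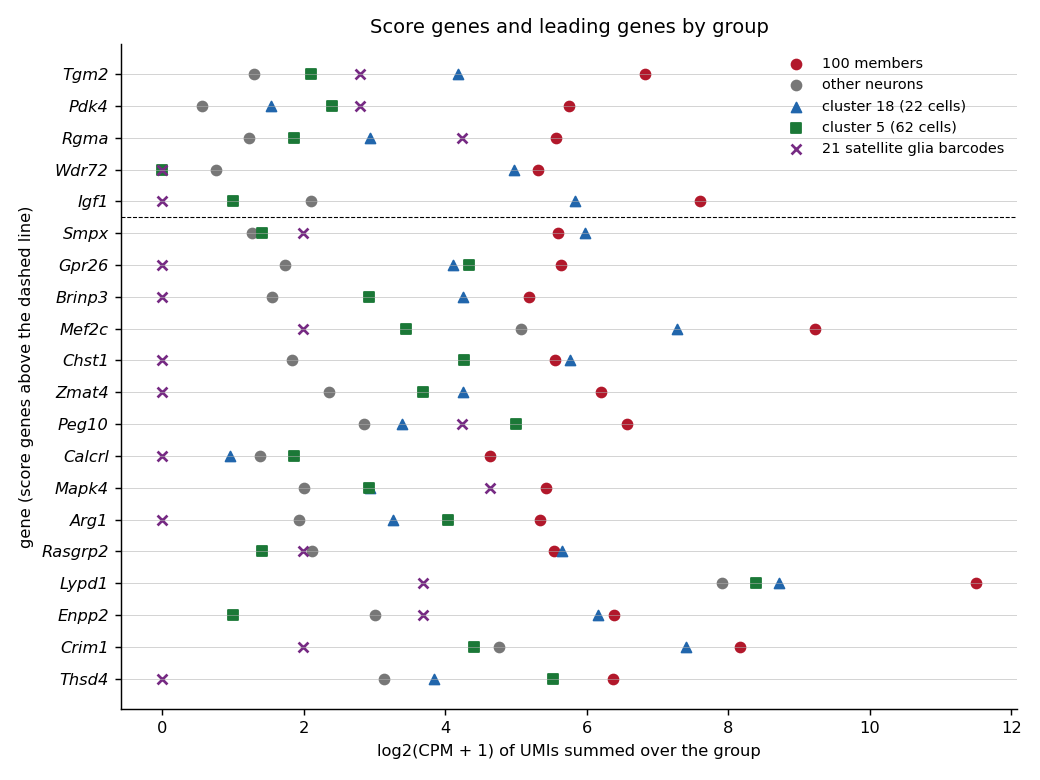
Level of the 5 score genes (above the dashed line) and the 15 leading genes, as log2(CPM + 1) of UMIs summed over 100 members, the other neurons, clusters 18 and 5 and 21 satellite glia barcodes. Members lie to the right of the other neurons for every gene. Cluster 18, which holds 7 of the members, reaches or exceeds them for Smpx, Chst1 and Rasgrp2. Its other 15 cells, not drawn apart, exceed the members for Chst1 (61.3 CPM) but not for Smpx (39.4) or Rasgrp2 (26.3).

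The genes with the lowest ratios were found in many other neurons. Hs3st4, a heparan sulfate sulfotransferase, had 20 UMIs in all members together and stood at 4.65 CPM against 119.9 (ratio 0.0388, 0.0237 to 0.0600). Dkk3, a secreted Dickkopf protein, was found in 20 members and in 77.2% of other neurons, at a ratio of 0.0604. Ass1, which makes argininosuccinate, was found in 57 members and in 96.2% of other neurons, at 24 against 343.5 CPM. Fxyd2, a subunit of the sodium pump, stood at 92.1 against 1304.9 CPM, and free RNA carried it at 1144.1 CPM. Tmem54, Dcdc2a, Efcab6, Ppfibp2, Nnat and Cpne4 had ratios from 0.0415 to 0.0815.

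Receptors for gut hormones, metabolites and prostaglandins were mixed in direction, beside 1.47% higher and 2.76% lower over all genes tested. Of 10 tested, 2 were 4-fold or more higher, 4 were 4-fold or more lower and 4 were within 4-fold, and the median log2 ratio was -1.02. Cckar, the receptor for cholecystokinin, stood at 41.2 against 319.9 CPM (ratio 0.129, 0.110 to 0.149), Npy2r, which binds peptide YY, at 3.95 against 77.1, and the proton sensor Gpr65 at 1.40 against 56.4. The receptors that were higher were Ptgfr, for prostaglandin F2 alpha, at 31.9 against 2.18 CPM (ratio 14.6, 11.5 to 18.7), and Oxtr, for oxytocin, at 31.2 against 5.88 (ratio 5.30, 4.32 to 6.47). Ptgfr was found in 61 members and Oxtr in 63.

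Transmitter receptors split by subunit. Among serotonin, opioid, adrenergic and cholinergic receptors 2 of 17 were 4-fold or more higher and 7 were lower. Over all genes tested the shares were 1.47% and 2.76%. The nicotinic subunit Chrna4 was found in 81 members and stood at 68.6 against 4.07 CPM (ratio 16.9, lower bound 14.2). The ganglionic subunits Chrna3 (8.84 against 202.9 CPM) and Chrnb4 (4.65 against 91.5) were low instead. Chrnb2, the usual partner of Chrna4, was found in 95 members at 1.91 times the level of other neurons. Htr7, under the 200 UMI minimum, stood 7.79 times higher (5.20 to 11.5). Of the glutamate genes, Grm5 had 16 UMIs in all other neurons and stood at 40.7 CPM in members against 0.254, a log2 ratio of 7.32 (as a ratio, 95.8 to 286.2). It too was under the minimum and enters no count, but its ratio was above that of every score gene. The AMPA receptor subunit Gria1 stood at 29.5 against 4.17 CPM, and the vesicular glutamate transporter Slc17a6 was near 1 (262.6 against 270.7).

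Sodium, potassium and calcium channels were mixed in direction, beside 1.47% higher and 2.76% lower over all genes tested. At 1.47% a short list would mostly hold no higher gene, so nothing is read from a count of 0 higher. Of 12 sodium channel genes tested none was 4-fold or more higher, and Scn10a and Scn11a were lower (ratios 0.126 and 0.115); the list's median log2 ratio was 0.90. Scn1a stood at 90.7 against 23.8 CPM. Of 27 potassium and HCN channel genes 4 were higher and 5 lower. Those higher were Kcns1 (44.9 against 4.72 CPM), a silent subunit of large sensory neurons, Kcnk1, Kcnd3 and Kcnn2. Kcnq3 (23.5 against 230.9), Kcnk3 (18.8 against 231.9) and Kcnk18 (0.233 against 14.4) were among those lower. The low-threshold calcium channel Cacna1g was found in 66 members and stood at 28.1 against 1.07 CPM, a ratio of 26.4 (19.4 to 36.2), again under the minimum. Of 8 calcium channel genes tested 1, Cacna2d2, was 4-fold or more lower and 0 were higher. Trpv1, the capsaicin receptor, stood at 0.0739 times the level of other neurons and Trpa1 at 3.95 against 131.7, and these were the 2 of 9 TRP channels that were 4-fold or more lower.

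Most genes of mechanical sensing and fibre type stayed within 4-fold, as did most of all genes tested. Of 10 mechanosensation genes tested none passed 4-fold in either direction, with a median log2 ratio of 0.91. Piezo2, the stretch-gated channel of touch and of lung and gut stretch afferents, was found in 91 members, at a median of 125.1 CPM, and stood 3.68 times higher (3.35 to 4.04) than the 35.6 CPM of other neurons. Tmc3 stood 3.07 times higher. Of 18 fibre type genes, 2 were 4-fold or more higher, Lgi2 (73 against 10.7 CPM) and the calcium buffer Pvalb (ratio 4.58), and 2 were lower, Calb1 and S100a6. For Pvalb, 3 members of clusters 15 and 18 held 52.7% of the UMIs, and the members of clusters 10 and 12 stood at 11.7 and 8.66 CPM against 6.55 in other neurons. The neurofilaments Nefh and Nefm had UMIs in all members, at 953.6 against 309.2 and 1529.8 against 508.0 CPM. The axonal adhesion gene Cntn1 was 3.38 times higher. Cluster 19, with 20 cells and 0 members, exceeded cluster 10 for Piezo2 (624.6 against 133.8 CPM) and Lgi2 (194.3 against 76). It did so too for Scn1a (219.8 against 78.6), Ppargc1a (108.6 against 30.2) and Rasgrp2 (86.6 against 42.7). Piezo2 stood above cluster 10 in 5 clusters, so these genes were high in neurons beyond this group.

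Most neuropeptide genes were low, beside 2.76% lower and 1.47% higher over all genes tested. Of 14 tested, 10 were 4-fold or more lower and 0 were higher, with a median log2 ratio of -3.13. Cartpt stood at 91.7 against 914.2 CPM, Calca at 0.0592 times the level of other neurons, Vip at 5.82 against 149.2 and Sst at 0.698 against 23.7. Some peptides were carried by few members. Penk had 83 UMIs in 9 members, of which the 3 highest members held 77.1%, and Gal had 584 UMIs in 66 members, with 42.1% in 3 of them. The highest Gal values, 2897.9 and 2418.7 CPM, were both in cluster 15. Tac1 was found in 22 members, with 44.3% of its UMIs in 3. The sums of these genes thus rest on few barcodes, and of the 3 highest for each, only that of Penk includes a member of cluster 10.

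**Figure D4:**
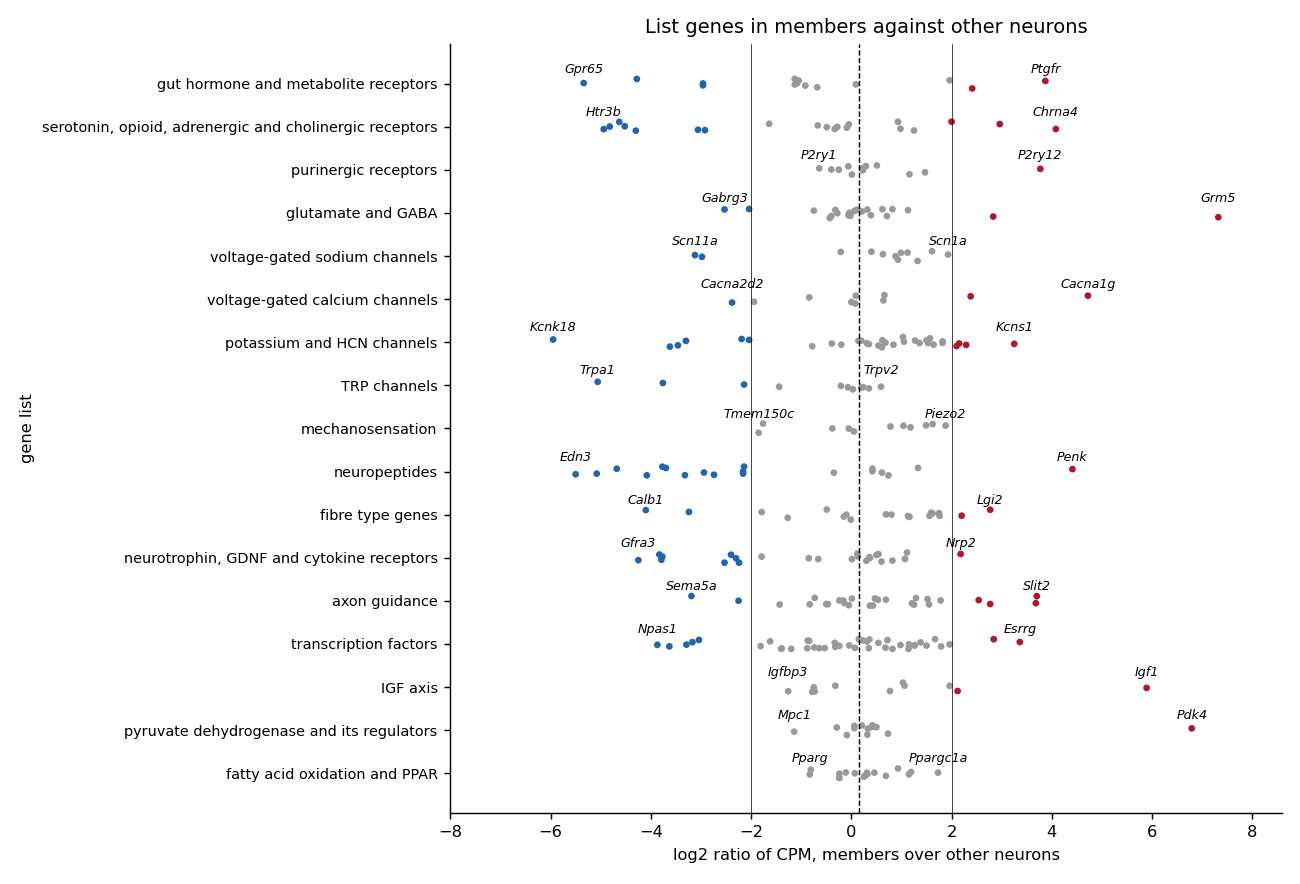
Log2 ratio of CPM, members over other neurons, for each list gene with at least 50 UMIs (points; vertical scatter within a row has no meaning). The dashed line is the median of all tested genes (0.16), thin lines mark 4-fold, red and blue points lie beyond them, and the outermost genes of each row are named; neuropeptides lie mostly on the left.

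Growth factor receptors, guidance genes and transcription factors were mixed in direction, beside 1.47% higher and 2.76% lower over all genes tested. The semaphorin receptor Nrp2 stood at 658.8 against 145.4 CPM and was found in 91 members, whereas its relative Nrp1 stood at 3.26 against 44.5. Among 22 neurotrophin, GDNF and cytokine receptors Nrp2 alone was 4-fold or more higher and 7 were lower, among them Ngfr (ratio 0.211) and Gfra1 (0.0722). Ret stood at 84.9 against 292.8 CPM. Of 21 guidance genes 4 were higher, namely Slit2 (143.3 against 11 CPM), Epha4 (27.2 against 2.13), Efnb2 (38.4 against 5.63) and Ntng1 (378.7 against 65.3), and 2 were lower, Sema5a and Robo1. Of 39 transcription factors 2 were higher, the orphan nuclear receptor Esrrg (38.9 against 3.78 CPM) and the homeobox gene Prox2 (34.9 against 4.87), and 5 were lower, among them Tbx3, Etv5 and Prdm12.

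In the pathways of the score genes few other genes passed 4-fold, as was so over all genes tested (1.47% higher, 2.76% lower). The score genes themselves are high by choice, so nothing is read from these counts. Of 13 genes around pyruvate dehydrogenase, Pdk4 alone passed 4-fold, and its relatives Pdk1, Pdk2 and Pdk3 had ratios of 1.33, 1.41 and 1.04. Mpc1, a subunit of the pyruvate carrier, stood at 247.3 against 544.3 CPM. Of 13 genes of fatty acid oxidation none passed 4-fold in either direction, and Ppargc1a was 3.31 times higher. Of 10 IGF genes tested Igf1 alone passed, and its receptor Igf1r stood at 61.2 against 101.7 CPM. Of 13 genes of RGM, neogenin and BMP signalling Rgma alone was higher, and Unc5b was lower. Tgm2 was the only transglutaminase with enough UMIs to test.

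After cluster 12, the clusters whose mean profile was most like cluster 10 over the variable genes were 18 (r = 0.922 across genes, n = 22 cells) and 5 (r = 0.897, n = 62 cells). Cluster 18, led by Cbln2 and Smpx, exceeded cluster 10 for Smpx (61.8 against 43.2 CPM), Kcns1 (83.7 against 30.2), Esrrg (67.5 against 33.8) and Nefh (1738.9 against 890.9). Of its 22 cells 7 were members, which raised these levels. In its other 15 cells Smpx stood at 39.4 CPM, below cluster 10. Kcns1 (49.7), Esrrg (39.4) and Nefh (1261.9) stayed above cluster 10 in those cells. It had less Mef2c (153.1 against 635.8 CPM), less Lypd1 (418.3 against 3334.0) and no UMI of Grm5 (against 45.8). Its 7 members had 111.7 CPM of Igf1 and 54.5 of Wdr72, but 21.8 of Tgm2 and 5.45 of Pdk4. Cluster 5, led by Rbp4, was close to cluster 10 for Piezo2 (132.9 against 133.8 CPM) and Nrp2 (814.5 against 782.6) and had more Prox2 (60.8 against 46.3). It had 3.31 CPM of Tgm2, and 990.6 of Nnat against 21.9. No test separates these clusters, since all come from 1 library.

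The unfiltered matrix was searched for further cells of this kind. All 1108 filtered barcodes were found in it with identical counts. Of 1021 left-out barcodes with 2000 UMIs or more, 20.9% had Snap25 at 500 CPM or more, and 2 carried 3 or more of the 5 genes, at 6468 and 13026 UMIs. At least 2 of the genes were carried by 24, counted without regard to Snap25. All members carried at least 2, but 44 other neurons carried 2 as well, so this level does not mark the group. The left-out barcodes had a median of 4607 UMIs, and members thinned to 10000 UMIs showed Pdk4, Rgma and Wdr72 in only 30% to 38%, so cells of this kind can be missed there. A doublet caller (Scrublet) marked 0 members and 3 other neurons.

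The picked cells came from other mice and another protocol, and the score did not use them. It was known when the group was chosen, however, that almost no picked gut cells belong to it. The low share below is therefore a description and no separate test. At 10 reads or more, Tgm2 was found in 52 cells, Wdr72 in 33, Pdk4 in 26, Igf1 in 10 and Rgma in 2. At least 3 of the 5 genes were found in 7 cells, a share of 1.56% (exact Clopper-Pearson 95% interval 0.629 to 3.19). These came from 5 mice: 2 cells from 1 GastP mouse, 2 from 1 IntL mouse, and 1 each from an IntM, a Port and an uncoded mouse. None was found among 60 GastG cells, 45 IntP cells or 35 IntD cells. Taking 3 counts as the limit that a count of 0 allows, the share could be up to 5%, 6.67% and 8.57%, and the upper Clopper-Pearson bounds were 5.96%, 7.87% and 10%. With so few cells no target can be told from another. At 1 read the number was 21 cells, and at 100 reads it was 1.

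That 1 cell, from GastP mouse Retro44, held most of the genes that were high in the droplet members. Among its 2841402 reads it had 260.1 CPM of Tgm2, 142.2 of Pdk4, 117.2 of Igf1, 105.6 of Wdr72 and 0 of Rgma. All 15 leading genes reached 10 reads in it, from 18 reads of Smpx to 5776 of Lypd1. It also had 36.6 CPM of Grm5, 82.4 of Chrna4, 57.7 of Ptgfr and 62.3 of Piezo2, but 3.87 of Trpv1 and 4.58 of Scn10a. Cacna1g, raised in the droplet members, had 0 reads, but it reached 10 reads in only 0.223% of picked cells. The other 6 cells carried 5 to 10 of the 15 leading genes at 10 reads. Scn10a, low in the droplet members, stood between 207.8 and 432.5 CPM in 4 of them, and Trpv1 at 752.5 and 122.9 in 2. Over all picked cells, 95.1% reached 10 reads of Scn10a and 67.5% of Trpv1. Picked cells with none of the 5 genes carried 1 of the 15 at the median (79.1% of cells, highest 6), those with 1 carried 2 (75 cells) and those with 2 carried 4 (12 cells). Cells of 1 mouse share their source, so these counts are given without a test.

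**Figure D5:**
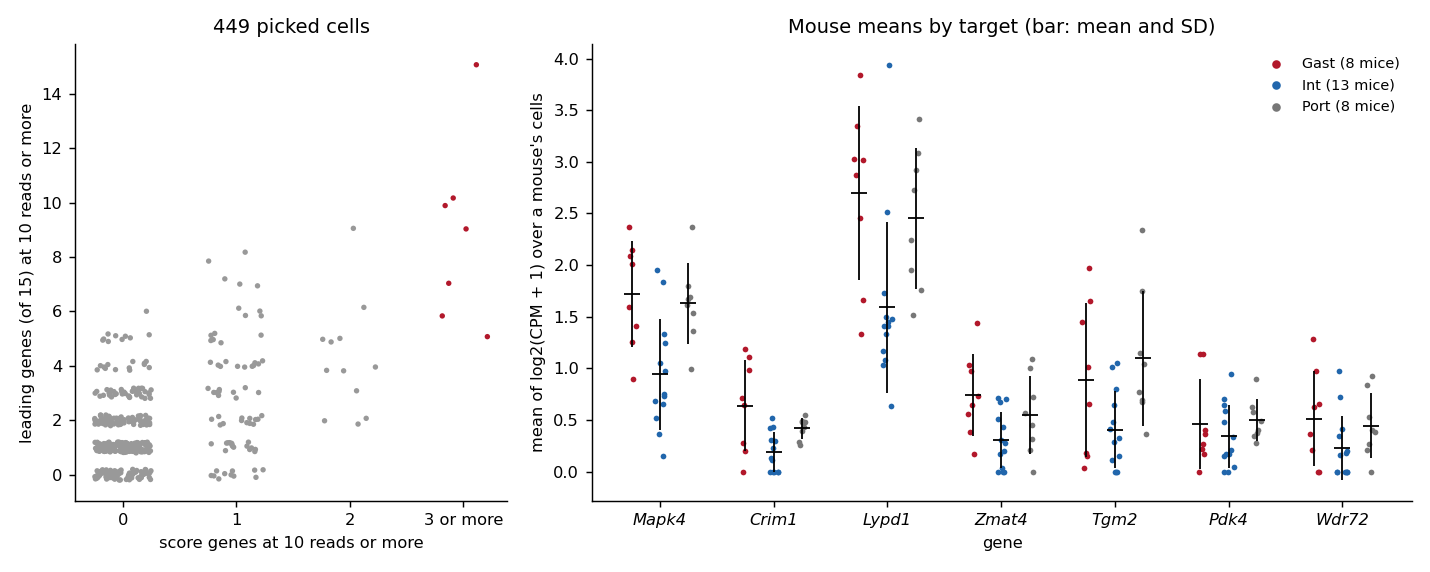
Left, number of the 15 leading genes at 10 reads or more in each picked cell, by the number of score genes at 10 reads or more (points are shifted slightly to show them all). Right, mean of log2(CPM + 1) over the cells of each mouse (points) for 7 genes in 8 Gast, 13 Int and 8 Port mice, with the mean and SD as bars; Gast mice lie highest on average for Mapk4, Crim1, Lypd1 and Zmat4.

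Levels of these genes were compared between targets over 29 mice with at least 4 cells, in 1 limma fit over 12693 genes on each mouse's mean of log2(CPM + 1). For Gast against Int, limma called 14.8% of genes, 1148 higher (9.04% of those tested) and 726 lower (5.72%), at an adjusted p of 0.05. Of the 5 score genes and 15 leading genes 12 passed the minimum of 10 reads in 5% of cells, and 8 did not (Rgma, Igf1, Smpx, Gpr26, Brinp3, Peg10, Calcrl and Rasgrp2). Of the 12, 4 were higher in Gast and 0 lower. All differences below are on the log2(CPM + 1) scale, which understates changes of sparse genes. A mouse's mean mixes its cell types, so more cells with a gene and more RNA per cell cannot be told apart. At 10 reads, Mapk4 was found in 23.6% of picked cells, Lypd1 in 22.5%, Zmat4 in 8.69% and Crim1 in 6.46%. Only 1.56% of picked cells held 3 or more score genes. The calls below thus describe picked cells at large and do not place this group at any target.

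Mapk4 ran from 0.90 to 2.37 over the 8 Gast mice (median 1.80) and from 0.15 to 1.95 over the 13 Int mice (median 0.75), so the groups overlapped. It was higher in Gast by 0.80 ± 0.19 (SE), with a limma adjusted p of 0.00426 and 8 of 8 Gast mice above the Int median. The Int codes were not alike: the IntL mice stood at 1.84, 1.95 and 0.97, and the other Int mice between 0.15 and 1.33. Crim1 ran from 0.00 to 1.19 in Gast (median 0.68) and from 0.00 to 0.52 in Int (median 0.13), a difference of 0.52 ± 0.13 with a limma adjusted p of 0.00461 and 7 of 8 mice above the Int median. Both calls held under every alternative.

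Lypd1 ran from 1.33 to 3.84 in Gast (median 2.95) and from 0.64 to 3.94 in Int (median 1.41). It was higher by 1.17 ± 0.33 (limma adjusted p 0.0154, 7 of 8 mice), a call that was lost without mouse Retro9 (adjusted p 0.0521), without Retro44 (0.0896) and without the 4 mice named next (0.0669), where the difference was 1.10, 0.90 and 0.90. Zmat4 was higher by 0.48 ± 0.15 (limma adjusted p 0.0291, 7 of 8 mice), a call that was lost without any 1 of the mice Retro9 (0.130), Retro26 (0.0544), Retro34 (0.0568), Retro42 (0.0591) or Retro44 (0.0519), and without the single picked cell described above (0.0622). The difference of Zmat4 stayed between 0.39 and 0.49 in those cases, so its size changed little while the adjusted p crossed the threshold. Retro44 and the Port mice Retro21, Retro22 and Retro27 had the highest Sprr1a, which axon injury induces: it averaged 3.91 to 9.42 in those 4 and 0.00 to 3.12 in the other 25. Retro44 (3.91) lay closer to Retro53 (3.12) than to Retro21 (5.60), so only the 3 Port mice were well apart. The injury genes Atf3 (7.20 to 10.24 against 2.99 to 7.40) and Ecel1 (2.37 to 8.25 against 0.00 to 2.80) overlapped, with Retro44 the lowest of the 4 for all 3 genes.

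None of the 3 score genes that could be tested passed for Gast against Int. Tgm2 ran from 0.04 to 1.97 in Gast mice and from 0.00 to 1.05 in Int mice, a difference of 0.45 ± 0.26 (limma adjusted p 0.271). Wdr72 differed by 0.31 ± 0.17 (limma adjusted p 0.231) and Pdk4 by 0.12 ± 0.14 (0.653). For Port against the mean of Gast and Int, limma called 4.99% of genes, 2.04% higher and 2.95% lower, and none of the 12. The nearest were Thsd4, at 0.42 ± 0.20 (limma adjusted p 0.198), and Enpp2, at 0.53 ± 0.25 (0.205). The share of genes called in that comparison ranged from 0.512% without Retro22 to 10.9% without Retro44 when single mice were left out. Without the 4 mice with the highest Sprr1a, Enpp2 passed (1.04, limma adjusted p 0.0478).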

How the data were processed

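Deposited counts of UMIs per gene and barcode, made with Cell Ranger 2.0.1 on mm10 per the submitters' processing notes, were used for the droplet library, as a filtered and a raw matrix. The gene and barcode names are of unit other, per the file headers. The picked cells came as the authors' deposited log2 values of reads; their aligner and counter are not given in the sources used here. A value at the minimum of -5.64 was taken as 0 reads, and 94.1% of those above it were whole reads within 1 part in 1000; the labels name a table of RPKM values, which is not used here. For 1 column no sample matched, and it was dropped. Of 452 cells 449 passed 2000 genes (median 1617516 reads, range 3934 to 4692462).

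The members and gene lists were chosen with earlier results of these data known. UMIs were summed per group and scaled to CPM. Ratios carry an exact interval, treating both sums as Poisson counts, and shares the Clopper-Pearson interval. Over 2000 simulated pairs, the ratio interval held a true ratio of 4 in 96% of cases. A gene was counted as higher or lower at 4-fold, with 200 UMIs over all neurons. Neurons were clustered in scanpy 1.11.5 (leidenalg 0.10.2) on 2000 variable genes, 30 principal components and 15 neighbours at resolution 1. The text names the score genes; outside the lists the 15 highest ratios (a UMI in 20% of thinned members) and 10 lowest (in 20% of thinned other neurons), without gene models, mitochondrial or ribosomal genes; and per list the 2 highest and 2 lowest with 50 UMIs. Other list genes were named after their values were seen, and a few genes are not reported here.

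Mouse means were tested with limma 3.58.1 (R 4.3.3), with trend over 7 codes, a pseudocount of 1 and Benjamini-Hochberg adjustment over all genes. The labels do not say that cells of a mouse were prepared separately from those of other mice. On simulated mouse values limma recovered 199 of 200 genes changed by a log2 difference of 2 for Gast against Int, with 8 unchanged genes called among 12693. Alternatives covered the number of members, depth, filters, clusters, pseudocount and each mouse.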

Additional observations from a re-analysis of the deposited data

Results flagged for a closer look

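In groups of 4 to 8 mice with 1 target code, 2 of 36 sets of values held a mouse flagged as outlying. Chance flags about 1 in 20 for values without ties, but many means here lie at 0, so that rate does not hold. Where the other 3 mice are at 0.00, as for Chst1 below, any value above 0 is flagged. Zmat4 averaged 0.51 on the log2(CPM + 1) scale in IntP mouse Retro17 (6 cells), against 0.00 to 0.04 in the other 3 IntP mice. Chst1 averaged 0.16 in IntP mouse Retro12 (15 cells) and 0.00 in the other 3.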

How the results depend on the processing

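Genes 4-fold or more lower came to 1.81% with 150 members and 4.38% with cluster 10 members alone, against 2.76% for the 100. Thinned to 10000 UMIs, 0.589% were higher and 1.9% lower of 6627 tested. With a minimum of 50 UMIs 2.03% were higher, and with no filter 20.7%. Of the latter, 76% had no UMI in members: setting 0 to 3 counts makes their ratio an upper bound only, and without them the share was 4.95%. At resolution 0.5 the leading cluster held 88 members, against 42. Picked cells with 3 score genes numbered 21 at 1 read and 1 at 100 reads. Calls for Port fell to 2.09% with genes of 1 read in 1% of cells and to 1.08% without the 4 mice with the highest Sprr1a. Leaving out single mice gave 10.9% to 16% called for Gast against Int and 0.512% to 10.9% for Port. Sprr1a fell below 1 with 50 members (0.399) or with clusters 10 and 12 (0.347). With 150 members Calb1 (1.71) turned higher; the cause was not tested. The value of Gabrg3 when thinned (1.21) is an upper bound, since no thinned member had a UMI, and shows no change of direction. Alternatives chosen after seeing the data were those without glia-rich barcodes, with both clusters, without the 4 mice and without 1 picked cell. Depth limits the sparse genes: each score gene lacks a UMI in some members. No paired analysis was possible because each mouse has 1 target code and the droplet library came from other mice.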
